A study of Homo sapiens with 3 samples.

Results

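The unfolded protein and ATF4 response genes described here are 39 genes listed by name, without a threshold on any measured value, and read on 3 Affymetrix arrays. For each gene, the probe sets annotated to it alone were kept, and the one with the highest mean log2 value over the 3 libraries stood for the gene. All 39 had such a probe set, out of 18239 genes on the array, and 37 passed the filter on dim genes (a mean log2 value of at least 3.93) together with 12779 genes in all. ERN1 and VLDLR did not pass. The cells were GFP-SAS, which the labels describe as a human tongue carcinoma line and whose GFP part they do not explain. Each library came from one culture condition of 24 h: siAkt1-22 or siAkt1-58, which are siRNAs (short duplexes that direct cleavage of a matching mRNA) against AKT1, or the non-targeting siRNA siNT, each at 10 nM. The labels give siAkt1-22 and siAkt1-58 the same genotype, so they form 1 group of 2 libraries, and siNT is a group of 1. Nothing in the labels says that these were independent cultures, and the limma p-values given here reflect the spread between libraries, which may be technical.

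The unfolded protein response is the reaction of a cell to misfolded protein in the endoplasmic reticulum (ER). Its sensors in the ER membrane are IRE1 (gene ERN1), which splices the XBP1 mRNA, PERK (gene EIF2AK3), which phosphorylates the translation factor eIF2alpha, and ATF6, which is cut to release a transcription factor. PERK, and the amino acid sensor GCN2 (gene EIF2AK4), slow general translation but favour translation of ATF4, whose targets make and import amino acids. XBP1 and ATF6 act on the genes of ER chaperones and of ER-associated degradation. AKT bears on this network as background, since it activates mTORC1, which is known to promote ATF4 translation. Splicing, phosphorylation and protein cutting are not read by an expression array.

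AKT1, the siRNA target, had log2 values of 3.67 with siAkt1-22 and 3.47 with siAkt1-58, against 6.75 with siNT. Median log2 values over 49386 probe sets were 4.59, 4.58 and 4.59 in the same order. The siAkt1-22 library stood at least 2-fold from both other libraries in 680 genes, siAkt1-58 in 256 and siNT in 244. Beside this, the 24 poly-A spike control probe sets differed from siNT by a median of -0.56 with siAkt1-22 and -0.013 with siAkt1-58, and the actin gene ACTB differed by -3.09 and 0.21. The part of these library differences in the results below was not tested. Epithelial markers were bright, with a median log2 value of 10.1 with siAkt1-22, 10.4 with siAkt1-58 and 10.2 with siNT over the 8 of 12 listed genes used here, KRT14 alone being dim. All 8 fibroblast markers and all 5 endothelial markers were at or below 4.50 in each library. Of 8 immune markers, CD79A was at 4.28, 4.28 and 4.39, and CD68 was brighter, at 6.75 and 7.14 with the siAkt1 siRNAs and 6.33 with siNT.

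Over the 37 members the median log2 difference from siNT was 0.02 with siAkt1-22 and -0.14 with siAkt1-58, beside 0 and 0 over all genes passing the filter. With siAkt1-22, 18 of 37 members were below siNT (48.6%), beside 35.7% of all genes. With siAkt1-58, 23 of 37 were below siNT (62.2%), beside 37% of all genes. Many of all genes had values equal to siNT, as no member passing the filter did, so the background is lowered: 4558 genes were below and 6199 above siNT with siAkt1-22, and 4727 below and 5824 above with siAkt1-58. DDIT3, ASNS and PSPH were at least 2-fold higher with siAkt1-22 (3 of 37, or 8.11%, beside 4.4% of all genes). TRIB3, MTHFD2 and PDIA6 were at least 2-fold lower (8.11%, beside 5.97%). With siAkt1-58, no member was at least 2-fold higher (1.54% of all genes were), and EDEM1 was at least 2-fold lower (1 of 37, beside 3.58%). No member was at least 2-fold higher with both siRNAs (0.736% of all genes) or at least 2-fold lower with both (1.17%). These shares differ from the background by few genes, and they rest on a size limit without a test. Both comparisons use the same siNT library.

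No member passed limma's moderated test of the siAkt1 group against siNT, and neither did any other gene (0% of 12779, threshold 0.05 after Benjamini-Hochberg adjustment over all genes tested). The limma adjusted p-values of the members ran from 0.607 to 1. Before adjustment, 5 members (XBP1, CEBPB, CHAC1, PSAT1 and CANX) had a limma p under 0.05, or 13.5% beside 7.47% of all genes. With 1 residual degree of freedom, this test reads mainly how close the siAkt1 libraries are to each other, so the lack of calls does not show that levels were equal. The arrays measured bulk RNA, in which fewer cells expressing a gene and less RNA per cell cannot be told apart.

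**Figure D1:**
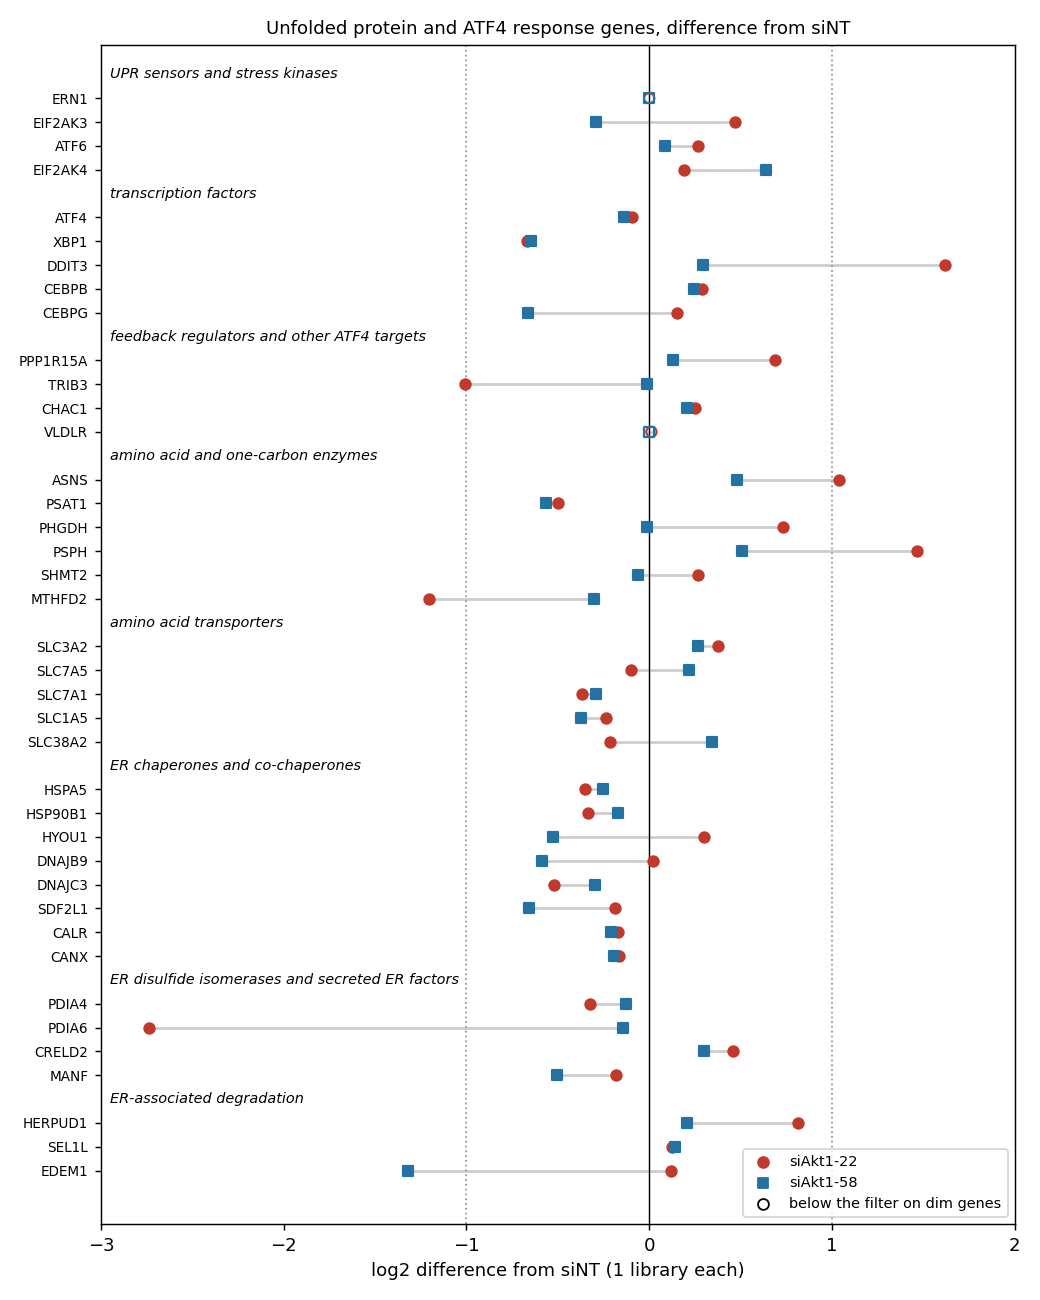
Log2 difference from siNT (x axis) of each of the 39 members (rows, by role), as 1 point for siAkt1-22 and 1 for siAkt1-58, joined by a line. Dotted lines mark 2-fold. Open symbols are genes that did not pass the filter. PDIA6, at -2.73 with siAkt1-22 and -0.15 with siAkt1-58, has the longest line, and the 8 ER chaperones and co-chaperones all lie left of 0 with siAkt1-58.

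Among the sensors and stress kinases no member was 2-fold from siNT. ERN1 read 3.82 in all 3 libraries, below the filter level, so the array gave no usable value for IRE1. EIF2AK3 had log2 values of 7.52 with siAkt1-22 and 6.77 with siAkt1-58, against 7.06 with siNT, so the siAkt1 libraries lay on opposite sides of siNT. Its other probe sets lay on the same sides, with differences from 0.34 to 0.53 and from -0.46 to -0.29 over all 3. ATF6 differed by 0.27 and 0.08. Over its 3 probe sets the differences ran from 0.09 to 0.27 with siAkt1-22 and from -0.11 to 0.08 with siAkt1-58, on both sides of siNT. EIF2AK4, the kinase that senses uncharged tRNA, read 8.15 with siAkt1-22, 8.60 with siAkt1-58 and 7.96 with siNT, differences of 0.19 and 0.64, while its dimmer probe set read 4.07 in all libraries.

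The transcription factors did not move as a group. ATF4 itself, the factor after which the amino acid branch is named, had 9.78 with siAkt1-22 and 9.74 with siAkt1-58, against 9.88 with siNT. These are differences of -0.09 and -0.14, and its known control by translation lies outside an mRNA measurement. XBP1, the target of IRE1 splicing, had 6.99 with siAkt1-22 and 7.01 with siAkt1-58, against 7.66 with siNT, that is lower by 1.59-fold and 1.57-fold. Both siAkt1 values were far closer to each other than to siNT (mean difference -0.66 ± 0.015, SD, n = 2), yet limma's adjusted p was 0.607, the lowest value of any gene, which other genes shared. The SD, like that given for PSAT1 below, is between the siAkt1 libraries alone and holds no variation of siNT. XBP1 rests on 1 probe set, which the annotation does not assign to the spliced or the unspliced form.

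DDIT3, which encodes the pro-apoptotic factor CHOP, had 6.43 with siAkt1-22 and 5.10 with siAkt1-58, against 4.81 with siNT. It was 3.07-fold higher with siAkt1-22, number 123 of 12779 genes from the top, and 1.23-fold higher with siAkt1-58. Its other probe set gave differences of 1.53 and 0.13. CEBPB, a leucine zipper partner of ATF4, differed by 0.29 and 0.25. CEBPG, another such partner, read 7.70 with siAkt1-22, 6.89 with siAkt1-58 and 7.55 with siNT. Its second probe set differed by -0.32 and -0.83, so only the lower value with siAkt1-58 was shared by both probe sets.

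The feedback regulators split. PPP1R15A (GADD34), which directs dephosphorylation of eIF2alpha, had 7.15 with siAkt1-22 and 6.59 with siAkt1-58, against 6.46 with siNT. TRIB3, a pseudokinase induced by ATF4 and CHOP and known to bind AKT, had 6.69 with siAkt1-22 and 7.69 with siAkt1-58, against 7.70 with siNT. TRIB3 was thus 2.01-fold lower with siAkt1-22 and level with siNT with siAkt1-58, while its dimmer probe set gave -0.14 and 0, and the average of both was -0.57 with siAkt1-22, inside the 2-fold limit. CHAC1, a glutathione-degrading enzyme, differed by 0.25 and 0.21 in its brighter probe set. The other CHAC1 probe set lay below the filter level and differed by -0.21 and -0.21, so that their averages were near 0. VLDLR, a lipoprotein receptor induced by ATF4, was dim at 2.98, 2.96 and 2.96.

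**Figure D2:**
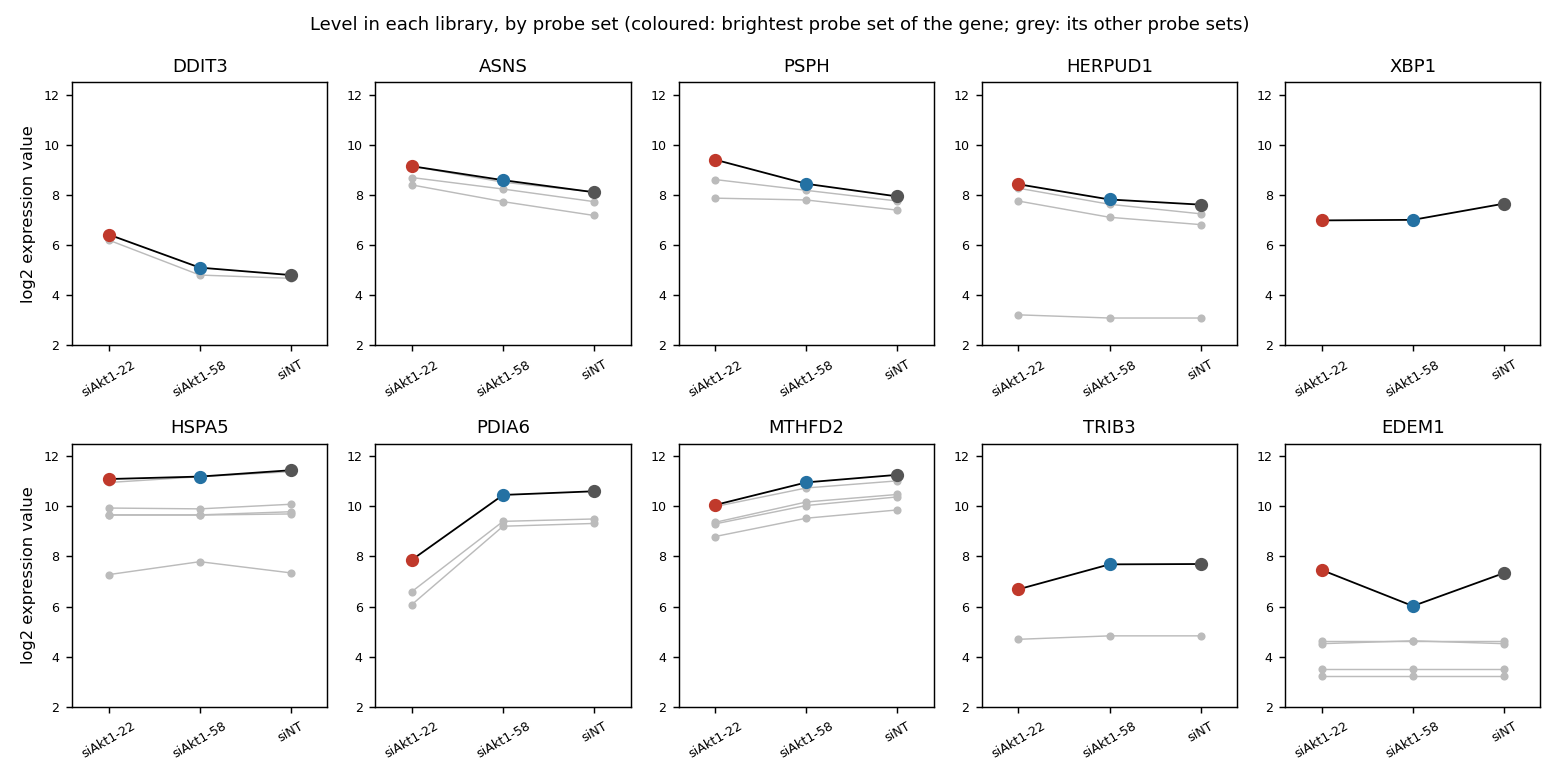
Log2 expression value (y axis) of 10 members in the siAkt1-22, siAkt1-58 and siNT libraries (x axis), 1 panel per gene. Coloured points joined in black are the brightest probe set of the gene and grey points its other probe sets. All 3 PDIA6 probe sets and all 5 MTHFD2 probe sets are lowest with siAkt1-22, whereas the 4 dimmer EDEM1 probe sets are flat or nearly so at low values.

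The enzymes of serine, asparagine and one-carbon metabolism lay on both sides of siNT. ASNS, asparagine synthetase, had 9.15 with siAkt1-22 and 8.59 with siAkt1-58, against 8.11 with siNT, or 2.06-fold and 1.40-fold higher. All 4 of its probe sets lay above siNT in both siAkt1 libraries, from 0.96 to 1.22 with siAkt1-22 and from 0.39 to 0.55 with siAkt1-58. PSPH, the last enzyme of serine synthesis, had 9.41 with siAkt1-22 and 8.45 with siAkt1-58, against 7.94 with siNT. Its probe sets ranged from 0.48 to 1.47 with siAkt1-22 and from 0.41 to 0.51 with siAkt1-58. The brightest is of the type marked _x_at, whose probes may also match other transcripts. Of this type too are the brightest probe sets of ASNS, EIF2AK4, SHMT2 and SLC1A5 and the only ones of ATF4 and PPP1R15A. The average of all 3 PSPH probe sets was 0.93 with siAkt1-22, inside the 2-fold limit. In both ASNS and PSPH the siAkt1 libraries lay above siNT and the siAkt1-22 library lay highest.

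The other enzymes of the same pathway did not share this order. PHGDH, the first enzyme of serine synthesis, had 8.51 with siAkt1-22 and 7.77 with siAkt1-58, against 7.78 with siNT. PSAT1, which acts between PHGDH and PSPH, had 8.17 with siAkt1-22 and 8.10 with siAkt1-58, against 8.67 with siNT (mean difference -0.53 ± 0.049, SD, n = 2, limma adjusted p = 0.614). Over its 8 probe sets the differences ran from -0.56 to 0.16 with siAkt1-22 and from -0.70 to -0.10 with siAkt1-58. The 3 steps of serine synthesis therefore pointed different ways in the same libraries. SHMT2, the mitochondrial serine hydroxymethyltransferase, differed by 0.27 and -0.06. MTHFD2, the mitochondrial folate enzyme that follows it, had 10.1 with siAkt1-22 and 11.0 with siAkt1-58, against 11.3 with siNT. Relative to siNT it was lower by 2.30-fold in the siAkt1-22 library and by 1.23-fold in the siAkt1-58 library, and all 5 of its probe sets lay below siNT, from -1.20 to -1.03 and from -0.34 to -0.28.

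The amino acid transporters lay close to siNT, with no difference beyond 0.38 in either direction. SLC3A2 (CD98), the heavy chain shared by several exchangers, was higher in 7 of 7 probe sets, by 0.38 with siAkt1-22 and 0.27 with siAkt1-58 in the brightest. Its leucine-carrying partner SLC7A5 (LAT1) differed by -0.10 and 0.22. The arginine transporter SLC7A1 differed by -0.37 and -0.29 (-0.10 and -0.099 with its 4 probe sets averaged), and the glutamine transporter SLC1A5 (ASCT2) by -0.23 and -0.37. SLC38A2 (SNAT2), a sodium-coupled neutral amino acid carrier, read 10.0 with siAkt1-22, 10.6 with siAkt1-58 and 10.2 with siNT, on opposite sides of siNT. With its 3 probe sets averaged, its mean difference from siNT changed sign.

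The C/EBP-ATF element is the composite site through which ATF4 and its partners act, and its core was searched for as TGATGNAA on both strands of RefSeq promoter windows (GRCh38.p14, 250 bases before to 50 bases after each start). It was found in 7 of the 37 members with a window (all 39 but PSPH and SHMT2), or 18.9%, beside 4.46% of 27305 genes. These were ASNS, SLC3A2, SLC7A1, CHAC1, HERPUD1, CEBPG and SLC1A5, and in SLC3A2 and SLC7A1 the match lay after the start. Of these 7 genes, 5 were above siNT with siAkt1-22 and 4 with siAkt1-58, so the match did not go with 1 direction. In both libraries, ASNS, HERPUD1, CHAC1 and SLC3A2 lay above siNT and SLC7A1 and SLC1A5 below it, while CEBPG lay on opposite sides. The upstream bases of ASNS and HERPUD1 are shown as examples of the genes above siNT. They run 5′ to 3′ on the strand of the gene, and capitals mark the match, whose first base lies at -68 from the start in ASNS and at -176 in HERPUD1, there on the opposite strand.
ASNS (chr7:97872409-97872658, minus strand): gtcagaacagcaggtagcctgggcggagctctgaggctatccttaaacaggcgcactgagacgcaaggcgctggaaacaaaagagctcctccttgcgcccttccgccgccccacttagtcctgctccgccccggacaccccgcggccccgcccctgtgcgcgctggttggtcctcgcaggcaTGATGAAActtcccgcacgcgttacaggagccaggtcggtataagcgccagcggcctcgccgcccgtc
HERPUD1 (chr16:56931892-56932141, plus strand): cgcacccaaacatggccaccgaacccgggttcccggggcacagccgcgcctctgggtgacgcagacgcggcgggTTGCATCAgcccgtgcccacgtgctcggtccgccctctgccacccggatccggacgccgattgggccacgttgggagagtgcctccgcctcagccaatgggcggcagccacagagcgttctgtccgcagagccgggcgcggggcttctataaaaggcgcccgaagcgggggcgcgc

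The ER chaperones and co-chaperones lay mostly a little below siNT. All 8 were below siNT with siAkt1-58 and 6 of 8 with siAkt1-22, with medians of -0.27 and -0.18 in that order, and none reached 2-fold. Of all genes, 37% were below siNT with siAkt1-58 and 35.7% with siAkt1-22, shares that equal values lower. HSPA5 (BiP), the ER HSP70 that also holds the sensors inactive, had 11.1 with siAkt1-22 and 11.2 with siAkt1-58, against 11.4 with siNT. Of its 6 probe sets, 6 lay below siNT with siAkt1-22 and 5 with siAkt1-58. The exception, a dimmer one, differed by 0.45, and the averages over the 6 were -0.20 and -0.060. HSP90B1 (GRP94), the ER HSP90, differed by -0.34 and -0.17, with all 7 probe sets below siNT in both libraries. The lectin chaperones CALR (-0.17 and -0.21) and CANX (-0.17 and -0.19) were below siNT in every probe set, 2 and 9 of them. These steps are small, 1.12-fold for CANX with siAkt1-22 and 1.14-fold with siAkt1-58, and limma's adjusted p was 0.643 for CANX and 0.708 for HSPA5.

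The co-chaperones differed more between the siRNAs. DNAJC3 (p58IPK), a BiP co-chaperone, had 7.63 with siAkt1-22 and 7.85 with siAkt1-58, against 8.15 with siNT. DNAJB9 (ERdj4), another, read 7.88 with siAkt1-22, 7.28 with siAkt1-58 and 7.86 with siNT. HYOU1 (GRP170), the nucleotide exchange factor of BiP, read 7.73, 6.90 and 7.43 in the same order, and SDF2L1 7.99, 7.51 and 8.17. In DNAJB9, HYOU1 and SDF2L1 the siAkt1-58 library was lowest, by -0.59, -0.53 and -0.66 from siNT. The 6 other HYOU1 probe sets above the filter level gave smaller differences, down to -0.38 with siAkt1-58, all on the same side in that library. With siAkt1-22, only 2 of these 6 lay above siNT as the brightest did, by 0.30, and the average over all 9 probe sets was 0.07.

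PDIA6, a protein disulfide isomerase of the ER that also binds and tunes IRE1 and PERK, showed the widest difference of the set. It had 7.87 with siAkt1-22 and 10.5 with siAkt1-58, against 10.6 with siNT. It was 6.65-fold lower than siNT with siAkt1-22, number 33 of 12779 genes from the bottom, and 1.11-fold lower with siAkt1-58. All 3 of its probe sets gave this pattern, from -3.24 to -2.73 with siAkt1-22 and from -0.15 to -0.10 with siAkt1-58. PDIA4, a related isomerase, had 9.80 and 10.0 with the siAkt1 siRNAs, against 10.1 with siNT, and showed no difference of this size. Among isomerases outside the set, PDIA3 (ERp57) had 9.02 with siAkt1-22 and 9.89 with siAkt1-58, against 10.0 with siNT, so it too was lower mainly in the siAkt1-22 library (-1.03, against -0.16 for siAkt1-58). PDIA5 differed by -0.53 and -0.099. CRELD2, an ER isomerase-like factor that can be secreted, was above siNT by 0.46 and 0.30. Its other probe set, below the filter level, read 3.23 in all libraries, and the averages with it were 0.23 and 0.15. MANF, a secreted ER stress factor, had 10.4 with siAkt1-22 and 10.1 with siAkt1-58, against 10.6 with siNT. Without PDIA6 the median of the set with siAkt1-22 was 0.07 in place of 0.02.

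The ER stress response element, bound by ATF6 and XBP1 together with NF-Y, was searched for as CCAAT, 9 bases of any kind and CCACG, on both strands of the same windows. It was found in 7 of the 37 members with a window (18.9%) and in 0.0916% of 27305 genes, that is 25 genes. The 7 members were HSPA5, HSP90B1, CALR, CANX, PDIA6, CRELD2 and XBP1. With each siRNA, 6 of them were below siNT and CRELD2 was above it, and their median differences were -0.34 with siAkt1-22 and -0.19 with siAkt1-58. Of all genes 35.7% and 37% were below siNT, and HSPA5, HSP90B1, CALR, CANX and PDIA6 are among the chaperones and isomerases already described, so this is not a separate count. A further motif, TGACGTGG, occurred in HYOU1 alone among the members and in 0.927% of genes. Its reverse complement contains CCACG, so it can overlap the longer element, but no member held both. None held the ER stress response element, in the exact form searched for, together with the C/EBP-ATF core. Inexact matches and other spacings of CCAAT and CCACG were not searched for, so members without a match may hold such forms. HERPUD1, whose upstream bases are shown above, holds ccaatgggcggcagccaca, which ends in CCACA in place of CCACG. It also holds attgggccacg, in which CCACG follows the reverse complement of CCAAT at a shorter spacing. A match describes letters in a window and not a bound site. The upstream bases of 4 members are shown: HSPA5 as the standard ER stress gene, XBP1 and PDIA6 for their lower values, and CRELD2 as the exception. Capitals mark the element, whose first base lies at -66 from the start in HSPA5, -52 in XBP1, -86 in PDIA6 and -80 in CRELD2, where it is on the opposite strand.
HSPA5 (chr9:125241344-125241593, minus strand): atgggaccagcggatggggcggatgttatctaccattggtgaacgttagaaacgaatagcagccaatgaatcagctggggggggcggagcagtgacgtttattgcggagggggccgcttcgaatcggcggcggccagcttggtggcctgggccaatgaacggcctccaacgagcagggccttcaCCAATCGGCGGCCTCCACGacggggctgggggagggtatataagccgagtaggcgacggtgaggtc
XBP1 (chr22:28800570-28800819, minus strand): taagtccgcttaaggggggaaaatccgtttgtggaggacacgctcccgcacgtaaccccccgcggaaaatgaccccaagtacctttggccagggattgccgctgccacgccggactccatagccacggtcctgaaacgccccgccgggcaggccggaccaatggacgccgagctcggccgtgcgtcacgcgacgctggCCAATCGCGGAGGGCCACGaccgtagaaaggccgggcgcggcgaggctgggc
PDIA6 (chr2:10812786-10813035, minus strand): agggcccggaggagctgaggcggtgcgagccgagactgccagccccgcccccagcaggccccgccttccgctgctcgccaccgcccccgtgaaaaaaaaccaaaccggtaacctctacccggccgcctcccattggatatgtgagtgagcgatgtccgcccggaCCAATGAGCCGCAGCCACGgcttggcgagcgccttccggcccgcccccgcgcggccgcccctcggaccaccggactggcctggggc
CRELD2 (chr22:49918384-49918633, plus strand): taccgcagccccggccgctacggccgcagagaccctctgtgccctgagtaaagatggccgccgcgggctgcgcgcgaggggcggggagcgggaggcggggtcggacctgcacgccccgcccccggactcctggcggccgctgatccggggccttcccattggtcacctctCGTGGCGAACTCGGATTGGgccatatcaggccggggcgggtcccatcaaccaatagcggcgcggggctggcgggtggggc

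Genes of ER-associated degradation, which carries misfolded proteins out of the ER to the proteasome, did not move together. HERPUD1, an ER membrane protein of the degradation complex, had 8.43 with siAkt1-22 and 7.82 with siAkt1-58, against 7.62 with siNT. Its 3 probe sets above the filter level ranged from 0.81 to 1.02 with siAkt1-22 and from 0.21 to 0.38 with siAkt1-58. SEL1L, the scaffold of the same complex, differed by 0.12 and 0.14 in its brightest probe set and by 0.87 and 0.34 in a dimmer one. EDEM1, a lectin that extracts misfolded glycoproteins, had 7.46 with siAkt1-22 and 6.02 with siAkt1-58, against 7.34 with siNT. EDEM1 was 2.49-fold lower with siAkt1-58, number 265 of 12779 from the bottom. Its other 4 probe sets were dimmer and did not show this (differences with siAkt1-58 of 0.11, 0, 0 and 0). Those at 0 read equal values in all libraries (4.62, 3.49 and 3.23, of which 3.49 and 3.23 are below the filter level), so they may not register a change. With probe sets averaged, these dim ones included, no member was at least 2-fold lower with siAkt1-58.

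**Figure D3:**
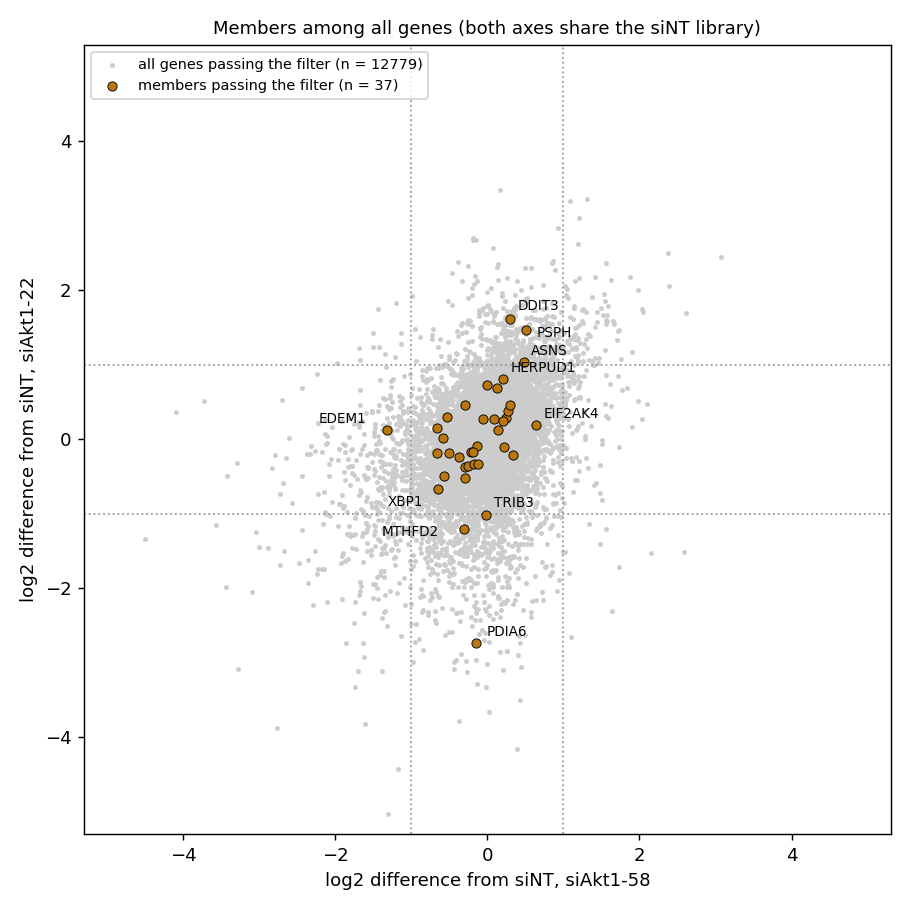
Log2 difference from siNT with siAkt1-22 (y axis) against that with siAkt1-58 (x axis) for 12779 genes (grey) and the 37 members passing the filter (orange). Dotted lines mark 2-fold, and both axes share the siNT library. Most members lie within the bulk of genes, and PDIA6, at -2.73 with siAkt1-22 and -0.15 with siAkt1-58, lies below it.

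Set directly against each other, a comparison that leaves siNT out, siAkt1-22 and siAkt1-58 differed by at least 2-fold in 3 of 37 members. DDIT3 (1.32) and EDEM1 (1.44) were higher with siAkt1-22 than with siAkt1-58 (2 of 37, or 5.41%, beside 5% of all genes). PDIA6 (-2.59) was lower with siAkt1-22 (1 of 37, or 2.7%, beside 5.28%). TRIB3 (-0.99), PSPH (0.96) and MTHFD2 (-0.90) followed just inside the limit. At the other end, XBP1 (-0.022), SEL1L (-0.019) and CANX (0.026) were nearly level between the siRNAs in their brightest probe sets. Dimmer probe sets could be less level: from siNT, with siAkt1-22 and siAkt1-58, a SEL1L probe set differed by 0.87 and 0.34. A CANX probe set differed by -0.78 and -0.23. Over the members the median absolute difference between the siRNAs was 0.32, beside 0.22 over all genes, and with 1 library each there is no test of it. The value over all genes is lowered by the 11.1% of them with 3 equal values, which no member passing the filter had.

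Other genes of the same pathways, from lists chosen by name, gave the following. Of 26 other ATF4 and amino acid response genes 18 passed the filter, with medians of 0.15 and 0.12. With siAkt1-22, GDF15, SESN2 and KLHL24 were at least 2-fold higher (3 of 18, beside 4.4% of all genes). With siAkt1-58, GDF15 and DDIT4 were (2 of 18, beside 1.54%). GDF15, a stress cytokine, had 7.65 with siAkt1-22 and 6.84 with siAkt1-58, against 5.29 with siNT (5.14-fold and 2.94-fold higher, 1 probe set, limma adjusted p = 0.757). SESN2, a leucine sensor that restrains mTORC1, had 7.22 and 6.78 with the siAkt1 siRNAs, against 6.11 with siNT. STC2, a secreted glycoprotein, had 8.09 and 8.05, against 8.72 with siNT. The cytosolic aminoacyl-tRNA synthetases, many of which are ATF4 targets, stayed near siNT: 17 passed the filter, none was 2-fold from siNT with either siRNA, and their medians were 0.15 and 0.02. None of the genes in any of these lists passed limma's test.

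On the ER side, 19 other folding and oxidation genes had medians of -0.14 and -0.01, and 4 were at least 2-fold lower with siAkt1-22 (PDIA3, ERO1A, ERO1B and CALU). For these and the following counts, 5.97% of all genes were at least 2-fold lower and 4.4% higher with siAkt1-22. With siAkt1-58, 3.58% were lower. ERO1A, the oxidase that recharges the disulfide isomerases, had 7.81 with siAkt1-22 and 8.41 with siAkt1-58, against 9.03 with siNT. FKBP14, an ER prolyl isomerase, had 4.25 and 4.12, against 5.01 with siNT. Among 17 other ER-associated degradation genes (medians 0.13 and 0.04) EDEM2, a relative of EDEM1, had 6.36 and 5.86, against 5.25 with siNT. EDEM2 was the 1 gene of that list at least 2-fold higher with siAkt1-22, and ERLEC1, an ER lectin, the 1 at least 2-fold lower, with 6.85 and 8.91, against 8.69 with siNT. The 19 translocon and ER export genes had medians of -0.02 and -0.01, and SRP9, a subunit of the signal recognition particle, was the 1 gene at least 2-fold lower with siAkt1-22 (8.35 and 10.3, against 10.4 with siNT). Among 17 other sensors and eIF2alpha regulators (medians -0.03 and 0) PPP1R15B (CReP), the constitutive counterpart of PPP1R15A, had 8.86 and 8.24, against 9.48 with siNT, and was the 1 gene at least 2-fold lower with siAkt1-58. EIF2AK1 (HRI), the heme-regulated eIF2alpha kinase, was the 1 at least 2-fold lower with siAkt1-22, at 7.75 with siAkt1-22 and 9.19 with siAkt1-58, against 9.15 with siNT. ERLEC1, SRP9 and EIF2AK1 lay close to siNT with siAkt1-58, and the part of the siAkt1-22 library's wider differences in them was not tested. In the list of AKT, mTORC1 and translation control genes (15 passing, medians 0.19 and 0.20) the mTORC1 scaffold RPTOR had 6.58 and 6.90, against 5.81 with siNT. TSC1, which restrains mTORC1, had 8.15 and 8.20, against 7.54 with siNT. AKT1S1 (PRAS40), an AKT substrate that inhibits mTORC1, had 6.16 with siAkt1-22 and 5.37 with siAkt1-58, against 4.94 with siNT, and was the 1 gene of this list at least 2-fold higher with siAkt1-22.

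**Figure D4:**
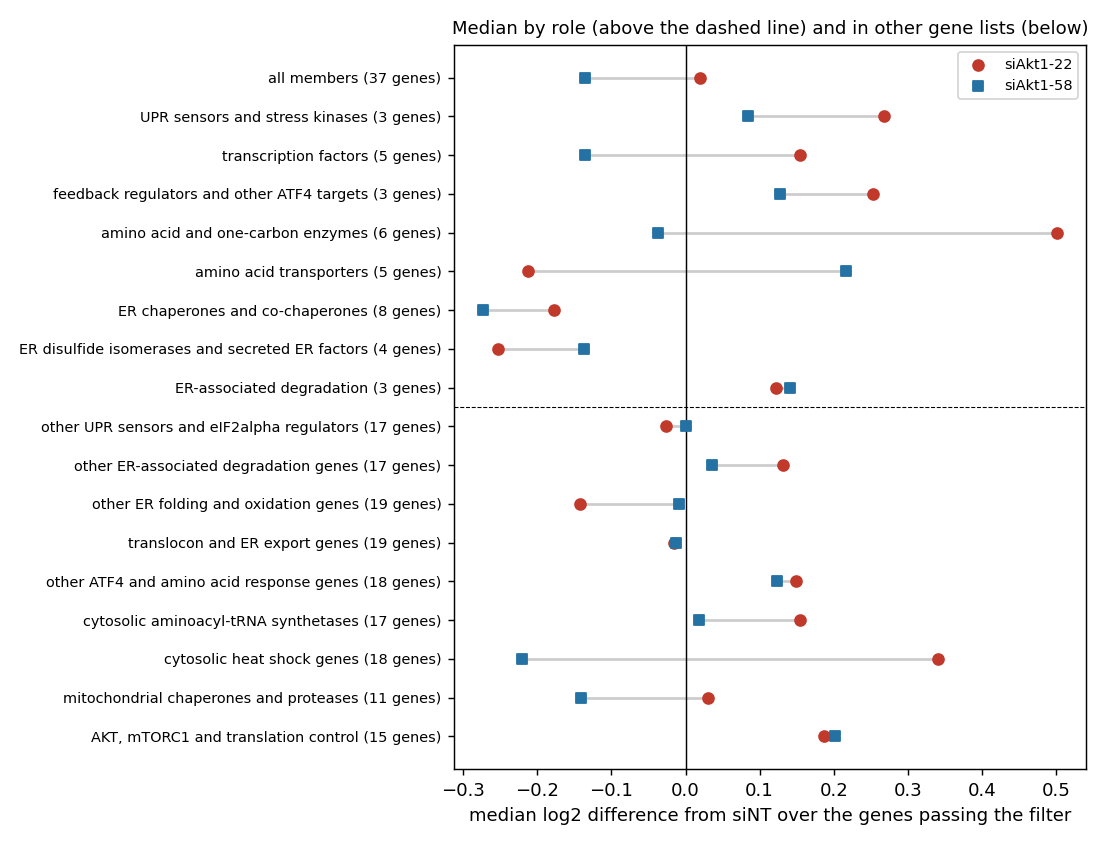
Median log2 difference from siNT (x axis) over the genes passing the filter, for all members and each role (above the dashed line) and for the other gene lists (below it), with siAkt1-22 and siAkt1-58 as separate points. The ER chaperones and co-chaperones, at -0.18 and -0.27, lie left of 0 with both siRNAs, and the amino acid and one-carbon enzymes lie at 0.50 with siAkt1-22 and -0.04 with siAkt1-58.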

How the data were processed

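Log2 expression values per probe set were taken as deposited by the authors for 3 arrays. RMA (background correction, equalised distributions and summary per probe set) is named in the submitters' processing notes, with no version or settings, and the log2 scale was read from the values. Per the labels, 10 ng of total RNA was labelled with a 3' in vitro transcription kit. Of 49386 probe sets, 45253 carried 1 gene symbol, updated through Entrez identifiers for 45172, and those with several symbols (1327), without a listed gene (2713) or for controls (93) were left out of the gene values. The brightest probe set by mean log2 stood for a gene, and a gene entered the tests if its mean reached the 30th percentile of genes (log2 3.93). Some deposited values are equal between arrays: 11.1% of genes passing the filter, and no member, had 3 equal values. Values near the filter level may understate differences, and precision is limited by having 3 arrays.

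The siAkt1 group (2 libraries) was compared with siNT (1 library) with limma's lmFit and eBayes (version 3.58.1, R 4.3.3). Tests were two-sided, adjusted over all genes by Benjamini-Hochberg with a threshold of 0.05, and had 1 residual and 0.467 prior degrees of freedom, so the siNT library is assumed to vary like the others. Single siRNAs were described by a limit of 2-fold. All members were named, and from other lists up to 3 genes on each side at least 1.5-fold from siNT with both siRNAs. CD68, CD79A, KRT14, ACTB, HSPB1, HSPA1B, PDIA3, PDIA5, ERO1B, CALU, KLHL24, DDIT4, ERLEC1, SRP9, EIF2AK1 and AKT1S1 were named after their values were seen. Members and lists were chosen with earlier results of these data known. Promoters came from RefSeq (GRCh38.p14), where 37 members matched by symbol. The steps were tested on simulated data, but recovery of known changes was required only under noise far smaller than the spread between the siAkt1 libraries. This does not show how often a change would be found in these data. Python 3.11.15, pandas 2.3.3 and matplotlib 3.10.9 were used.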

Additional observations from a re-analysis of the deposited data

How the results depend on the processing

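The counts of members by size depend on the limit and, in few genes, on the probe sets. At 1.5-fold in place of 2-fold, 6 members were higher than siNT with siAkt1-22 (16.2%, beside 12.3% of all genes, and 3 at 2-fold), 1 was higher (2.7%, beside 6.58%, and 0 at 2-fold) and 5 were lower (13.5%, beside 8.74%, and 1 at 2-fold) with siAkt1-58, and 1, XBP1, was lower with both (2.7%, beside 3.58%, and 0 at 2-fold). Between the siRNAs, 9 were then higher (24.3%, beside 12.1%, and 2 at 2-fold) and 3 lower (8.11%, beside 10.8%, and 1 at 2-fold) with siAkt1-22 than with siAkt1-58. Equal values, which no member passing the filter had in all libraries, lower the shares of all genes. With probe sets averaged, 0 members were 2-fold lower with siAkt1-58 (1 as reported, EDEM1) and 1 was 2-fold higher in the siAkt1-22 than in the siAkt1-58 library (2 as reported), and 2 were 2-fold higher and 2 lower than siNT with siAkt1-22 (3 and 3 as reported), without PSPH and TRIB3. With median-centred arrays 2 were 2-fold lower in the siAkt1-22 than in the siAkt1-58 library (1 as reported), since TRIB3 lay just inside the limit. The median over the members of the mean difference from siNT was -0.11, and it was from -0.14 to 0.019 when either siAkt1 library was left out, which leaves no residual degree of freedom and so no test. Quantile normalization put TRIB3 inside the 2-fold limit with siAkt1-22 (-0.97). Under quantile normalization, no filter and the stricter filter at the 50th percentile, each count stayed within 1.5 times and each median within the spread of the siAkt1 libraries. Limma called 0 members under every setting run, including an intensity trend and robust eBayes, with 954 genes under an unadjusted p of 0.05 as reported and from 485 to 1803 under the other scalings, probe set rules and filters. Of the 37 members passing the filter, median centring and quantile normalization put none on the other side of siNT in its mean difference, and averaging put 1 there, SLC38A2. No paired analysis was possible because siNT has 1 library and the labels give no replicate numbers.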

Other observations

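Genes of neighbouring protein-folding systems were also read. Of 19 cytosolic heat shock genes, the targets of HSF1 and their partners, 18 passed the filter. With siAkt1-22, 15 of 18 were above siNT with a median of 0.34, and with siAkt1-58, 14 of 18 were below it with a median of -0.22. Of all 12779 genes passing the filter, 6199 were above siNT with siAkt1-22 and 4727 below it with siAkt1-58, counts that equal values lower. HSPB1 (HSP27) had 11.98 with siAkt1-22 and 10.8 with siAkt1-58, against 10.8 with siNT. The inducible HSP70 gene HSPA1B had 10.4 with siAkt1-22 and 9.27 with siAkt1-58, against 9.40 with siNT, but it shares near-identical sequence with HSPA1A, so the array may not separate them. Between the siRNAs, 4 of the 18 differed by at least 2-fold, beside 1314 of the 12779 genes. With 1 library each, none of these differences was tested against replicate spread, and limma called 0 of the 18 for the siAkt1 group. Of 11 mitochondrial chaperones and proteases, 6 were above siNT with siAkt1-22 and 9 below it with siAkt1-58, with medians of 0.03 and -0.14 and no gene 2-fold from siNT with either siRNA.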
